A study of Mus musculus with 17 samples.

Results

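The glucocorticoid and stress response genes examined here are Fkbp5, Sgk1, Tsc22d3, Zbtb16, Plin4, Ddit4, Nfkbia, Cdkn1a, Mt1 and Mt2. They were taken from the count table by gene symbol, and all 10 were found among its 24498 genes, of which 20346 had at least 1 count in some library. Each of the 10 passed the filter on low counts in every fit. The table counts polyadenylated RNA in 17 libraries, each from sliced dorsal hippocampus of a mouse, with the fields CA1, CA2 and CA3 and the dentate gyrus. Both wild-type mice (WT) and constitutive knockouts (KO) of Acss2 were used. The enzyme it encodes turns acetate into acetyl-CoA, and in a constitutive knockout the gene is missing from every cell type throughout development. At 6 months of age the mice received an intracranial injection of PBS or of Tau purified from brain tissue of people with Alzheimer's disease. Per the study's methods, tissue was collected after a long incubation in the months that followed. The 6 groups were WT and KO males after PBS, WT and KO males after Tau, and WT and KO females after Tau. There were 2 libraries of WT females and 3 of every other group. No PBS group of females was among the libraries, so each comparison of the sexes was made between Tau-injected mice. The female libraries also carried numbers of another series than the male ones, so sex cannot be told apart from any other difference between these mice. Each library is named by the number in its label, taken here to be that of a mouse.

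Glucocorticoids, mainly corticosterone in mice, are released from the adrenal gland under control of the hypothalamus and pituitary, with a daily rhythm and in response to stress. They enter cells and bind the glucocorticoid receptor (Nr3c1) and the mineralocorticoid receptor (Nr3c2), which leave a chaperone complex, move to the nucleus and bind DNA elements near their target genes. The hippocampus is rich in both receptors and takes part in the feedback that ends the hormone's release. Several of the 10 genes are also induced by other stresses: metallothioneins by zinc and other metals, Cdkn1a by p53, Nfkbia by NF-κB, and Ddit4 by low energy or low oxygen.

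Promoter sequences are given for Sgk1, Mt1 and Mt2, because these were the promoters among the 10 genes that held a glucocorticoid response element or repeated metal response elements. RefSeq promoters (build GRCm38.p6, from 250 bases before to 50 bases after each start) were available for 9 of the 10 genes, with 17 starts in all. The palindrome AGAACANNNTGTTC, searched on both strands, was in 1 of the 17, at a start of Sgk1, and in 0.0487% of all 32851 promoters of this length. A looser form, GNACANNNTGTNC, overlaps that site and was also in the Mt1 promoter. It was in 0.475% of all promoters. The core of the metal response element, searched as TGCACNC or TGCGCNC on both strands, was in 25.7% of all promoters. It was present 3 or more times in 1.31% and 4 or more times in 0.295% of them. Mt1 held 3 copies and Mt2 held 4.

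The Sgk1 promoter (chr10:21993640-21993939, plus strand, transcript start inside the gene) is shown with the palindrome in capitals, 189 bases before the start. The palindrome matched on both strands with a shift of 1 base, so the capitals run 1 base longer than the searched letters.
Sgk1: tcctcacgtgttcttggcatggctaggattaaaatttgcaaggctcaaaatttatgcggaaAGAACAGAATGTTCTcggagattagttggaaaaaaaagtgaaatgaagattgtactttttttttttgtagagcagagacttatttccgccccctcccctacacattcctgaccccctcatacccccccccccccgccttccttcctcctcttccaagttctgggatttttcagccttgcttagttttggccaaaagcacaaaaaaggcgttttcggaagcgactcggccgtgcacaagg
The Mt1 promoter (chr8:94178839-94179138, plus strand) is shown with the looser palindrome, 94 bases before the start, and the 3 metal response element cores in capitals.
Mt1: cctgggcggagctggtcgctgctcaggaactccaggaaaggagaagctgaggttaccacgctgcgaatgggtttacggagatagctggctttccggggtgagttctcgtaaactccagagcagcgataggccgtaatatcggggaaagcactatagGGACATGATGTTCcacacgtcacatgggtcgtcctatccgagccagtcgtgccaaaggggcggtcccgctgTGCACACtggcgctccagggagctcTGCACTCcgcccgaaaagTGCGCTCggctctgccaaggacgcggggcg
The Mt2 promoter (chr8:94172368-94172667, plus strand) lies upstream of Mt1 on the same strand and is shown with its 4 metal response element cores in capitals.
Mt2: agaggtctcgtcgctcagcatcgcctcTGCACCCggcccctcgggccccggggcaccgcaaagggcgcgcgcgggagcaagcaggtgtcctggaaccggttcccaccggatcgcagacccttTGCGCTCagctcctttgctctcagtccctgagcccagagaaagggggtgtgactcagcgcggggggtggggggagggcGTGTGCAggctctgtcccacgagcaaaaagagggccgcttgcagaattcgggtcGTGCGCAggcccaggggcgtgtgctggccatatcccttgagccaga
A match is a description of these letters only. Sgk1 and both metallothionein genes were among the genes that differed between the sexes, as described next. Plin4, Tsc22d3 and Fkbp5, which differed too, held neither form of the palindrome and no metal core in these promoters. Nfkbia and Ddit4, which also differed, held 1 metal core each and neither palindrome.

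Libraries held between 14183131 and 22463635 counts, and levels are given as CPM (counts rescaled so that every library has an equal total). A count of 0 allows up to 3 counts, or 0.134 to 0.212 CPM, a limit for counting error only. Acss2 ranged from 3.07 to 8.81 CPM among KO mice and from 44.0 to 54.6 CPM among WT mice, as the genotype labels say. Markers of dentate granule, CA1 and CA3 cells were detected in every library. Some libraries stood apart in their markers of neighbouring tissue or other cells. Striatal markers summed to 788 CPM in male KO PBS 752, against 173 to 297 CPM elsewhere. Choroid plexus markers summed to 5429.6 CPM in male KO Tau 713, against at most 1122 CPM in any other library. Astrocyte markers summed to 8434 CPM in male KO Tau 711, against 4574 to 5453 CPM in the other males. Oligodendrocyte markers summed to 12697 CPM in female WT Tau 331, against at most 8094 CPM in any other library. Thalamic markers summed to 562 and 322 CPM in female WT Tau 331 and 341, and to 572 and 458 CPM in female KO Tau 324 and 325. They summed to 160 CPM in female KO Tau 314 and to 162 to 268 CPM in the males.

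Per length, the metallothioneins led and Plin4 was last. In male WT PBS mice (n = 3) CPM per kilobase of exon (RPKM) were 131 ± 9.53 for Mt2, 122 ± 3.06 for Mt1 and 32.2 ± 2.63 for Ddit4 (mean ± SD). Tsc22d3 followed at 14.6 ± 0.754, Sgk1 at 13.2 ± 1.65 and Nfkbia at 11.3 ± 0.204. Next came Zbtb16 at 9.95 ± 0.547, Fkbp5 at 5.80 ± 0.970, Cdkn1a at 4.10 ± 0.698 and Plin4 at 0.278 ± 0.0808. Neighbours in this order whose libraries overlapped were Tsc22d3 and Sgk1, Sgk1 and Nfkbia, and Fkbp5 and Cdkn1a. Lengths are of all annotated exons of a gene, so a transcript that uses only some of them is understated. Mt1 and Mt2 are close copies of one family, and reads that fit both could be left uncounted. Their separate levels are therefore uncertain.

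Female Tau mice had higher levels of most of these genes than male Tau mice. In the fit of the 11 Tau libraries, which averages over both genotypes, 8 of the 10 genes were higher in females at an adjusted p under 0.05 (edgeR quasi-likelihood test with Benjamini-Hochberg adjustment over 15419 genes) and 0 were lower. Of all genes tested, 11.4% were called higher and 12.4% lower, 23.8% together. The 10 genes were chosen with earlier results of these data known. The median log2 fold change was 0.94 over the 10 genes and -0.01 over all genes. For 6 of the 10 genes all 5 female libraries lay above all 6 male Tau libraries, against 6.76% of all genes, and none lay wholly below (3.77% of all genes). For 5 of them the females also lay above all 12 male libraries, against 5.45% of all genes, and again none below (2.72%). Scaled to library totals alone, 63.8% of the 3479 genes called were higher in females, against 47.8% of 3674 with TMM factors, and 9 of the 10 genes were called.

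**Figure D1:**
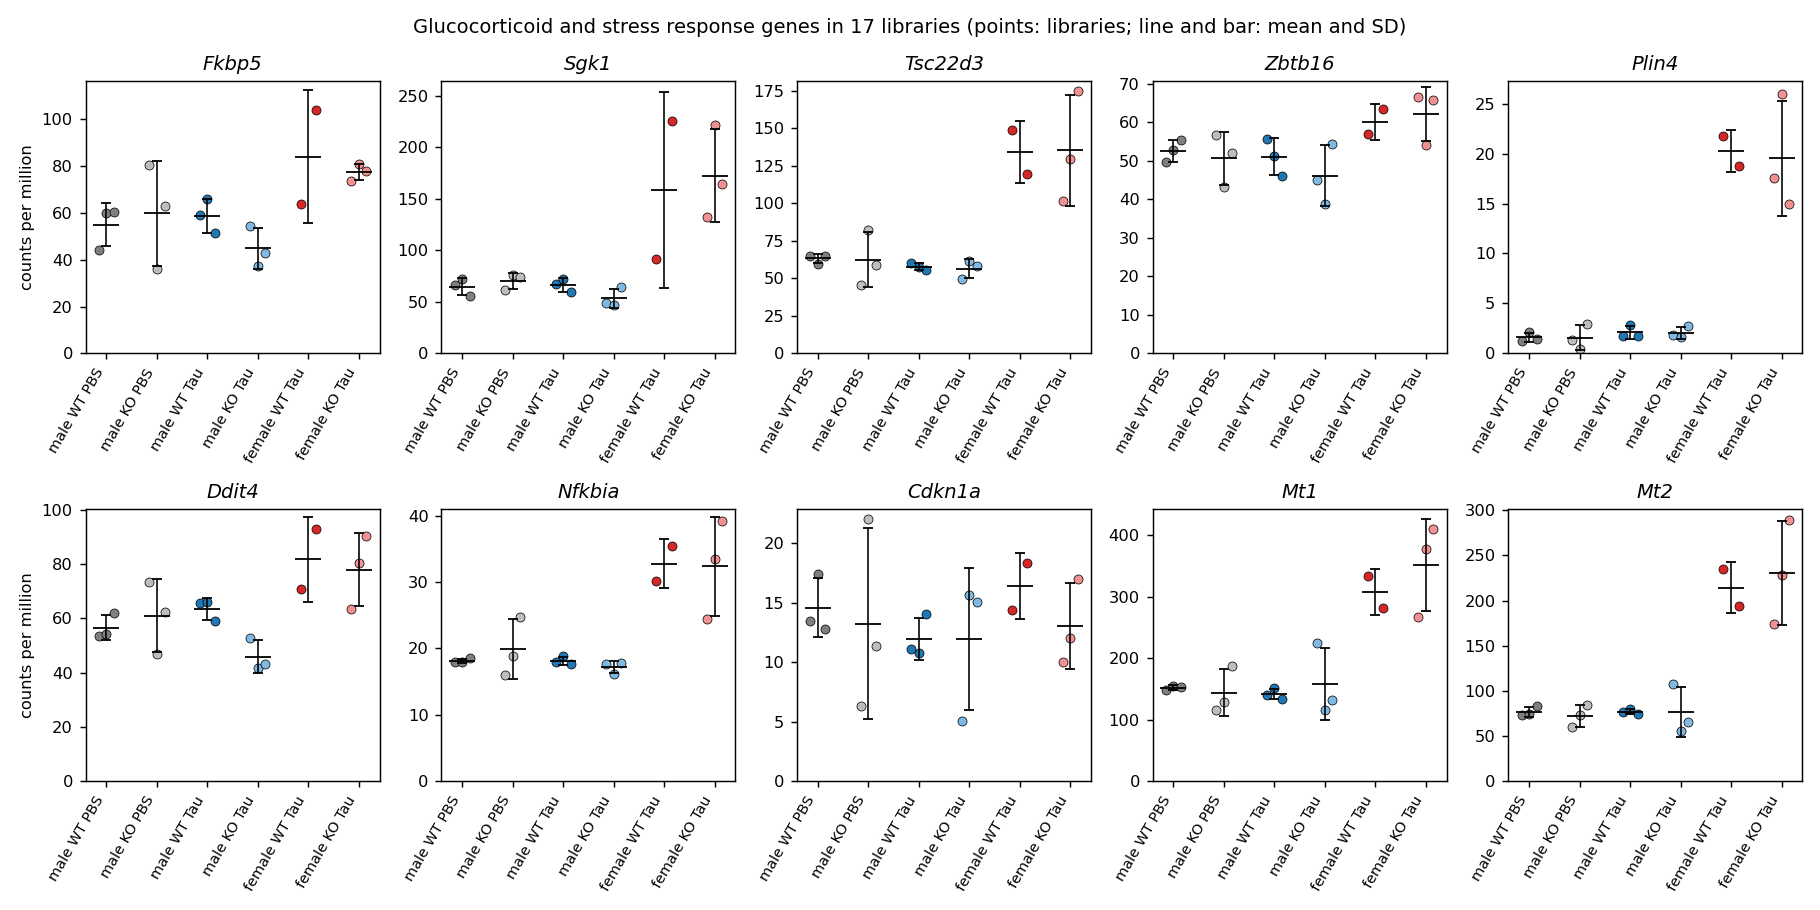
CPM of each of the 10 genes in every library, by group (points are libraries, the line is the group mean and the bar its SD, n = 3, or n = 2 for female WT Tau). In Plin4, Tsc22d3, Sgk1, Mt1 and Mt2 all 5 female libraries lie above all 12 male libraries.

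Plin4 encodes perilipin 4, a protein of lipid droplets, and is a known glucocorticoid target (chromosome 17, 56100591 to 56109803, minus strand). In males it was at 1.21, 2.12 and 1.49 CPM in WT PBS, 1.32, 0.484 and 2.98 in KO PBS, 1.73, 2.85 and 1.72 in WT Tau, and 1.83, 1.62 and 2.73 in KO Tau. In females it was at 21.7 and 18.8 CPM in WT Tau and at 17.6, 26.0 and 14.99 in KO Tau. The lowest female library was several times the highest male library, and the 4 male groups overlapped one another. The log2 fold change between the sexes was 3.19 (SE 0.21, adjusted p 1.82e-05, edgeR), the seventh smallest p among all genes. It was the same size in WT mice (3.18, SE 0.30) and in KO mice (3.19, SE 0.29). Exons of Plin4 overlap Hdgfl2 on the opposite strand, and whether the libraries keep strand was not tested. The authors counted in reverse-stranded mode, while the kit as sold does not mark strand. Without strand, reads of the overlap cannot be told apart. That neighbour, listed under its older symbol Hdgfrp2, was lower in females (log2 fold change -0.44, SE 0.08, adjusted p 0.00661), at 63.6 to 81.5 CPM against 85.9 to 104 in males.

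Tsc22d3 encodes GILZ, a leucine zipper protein that carries part of the anti-inflammatory action of glucocorticoids (chromosome X, 140539528 to 140600659, minus strand). Male libraries gave 65.2, 59.5 and 65.2 CPM in WT PBS, 45.8, 82.1 and 59.0 in KO PBS, 60.5, 57.3 and 55.6 in WT Tau, and 49.9, 61.8 and 58.0 in KO Tau. Female libraries gave 149 and 119.9 CPM in WT Tau and 101, 129.7 and 175 in KO Tau. Again every female lay above every male, and the widest male spread was in KO PBS. The difference was 1.17 on the log2 scale (SE 0.12, adjusted p 0.000724, edgeR), with 1.14 (SE 0.17) in WT and 1.20 (SE 0.16) in KO mice.

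Sgk1 encodes a kinase that controls ion channels and transporters and is induced by both steroid receptors (chromosome 10, 21882184 to 21999903, plus strand). Its male values were 66.3, 72.0 and 56.0 CPM in WT PBS, 61.7, 76.4 and 73.6 in KO PBS, 67.5, 71.9 and 59.2 in WT Tau, and 49.3, 47.2 and 64.3 in KO Tau. Its female values were 91.3 and 226 CPM in WT Tau and 132, 221 and 164 in KO Tau. The females lay above the males but were far from one another, with the WT pair at the extremes. The log2 fold change was 1.41 (SE 0.22, adjusted p 0.00488, edgeR), and without female WT Tau 341 it was 0.99 (adjusted p 0.00918).

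The metallothioneins bind zinc and copper and protect against metals and oxidants, and both genes respond to metals as well as to glucocorticoids. They lie next to each other on chromosome 8, Mt2 from 94172664 to 94173568 and Mt1 from 94179082 to 94180327. Mt1 was at 147, 155 and 153 CPM in male WT PBS, 116, 129 and 187 in male KO PBS, 139.7, 151 and 134 in male WT Tau, and 224, 116 and 131 in male KO Tau. In females Mt1 was at 334 and 281 CPM in WT Tau and at 267, 377 and 410.4 in KO Tau. The highest male value was that of KO Tau 711, the male library with the high astrocyte markers, and it stayed below every female. Mt1 was higher in females by 1.07 on the log2 scale (SE 0.17, adjusted p 0.00518, edgeR), or by 1.26 without library 711.

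Mt2 was at 73.6, 73.9 and 83.5 CPM in male WT PBS, 59.6, 72.7 and 84.0 in male KO PBS, 76.8, 80.3 and 74.1 in male WT Tau, and 107, 55.6 and 65.8 in male KO Tau. Its female values were 234 and 194 CPM in WT Tau and 174, 228 and 289.7 in KO Tau. As for Mt1, library 711 was the highest male and lay under all females. The log2 fold change was 1.46 (SE 0.17, adjusted p 0.00157, edgeR), or 1.65 without library 711. The ratio of Mt2 to Mt1 counts was 0.606 to 0.706 in the female libraries and 0.449 to 0.565 in the 12 male libraries, so the ranges did not overlap. Exons of Mt2 overlap Gm45774 on the opposite strand, which was not found among the counted genes under that symbol.

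Nfkbia encodes IκBα, which holds NF-κB in the cytoplasm and is induced by NF-κB itself and by glucocorticoids (chromosome 12, 55489410 to 55492647, minus strand). Males were at 17.9, 17.9 and 18.5 CPM in WT PBS, 16.03, 18.9 and 24.8 in KO PBS, 18.0, 18.8 and 17.6 in WT Tau, and 17.7, 16.2 and 17.7 in KO Tau. Females were at 30.2 and 35.4 CPM in WT Tau and at 24.5, 33.5 and 39.2 in KO Tau. All females lay above the male Tau libraries, but male KO PBS 753 reached the lowest female. The difference was 0.81 on the log2 scale (SE 0.11, adjusted p 0.00247, edgeR).

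Fkbp5 encodes FKBP51, a co-chaperone that lowers the receptor's affinity for the hormone and so forms a short feedback loop (chromosome 17, 28399094 to 28517527, minus strand). It was at 44.3, 59.9 and 60.5 CPM in male WT PBS, 80.4, 35.9 and 63.0 in male KO PBS, 59.0, 66.0 and 51.5 in male WT Tau, and 54.4, 37.5 and 42.8 in male KO Tau. Female values were 63.8 and 104 CPM in WT Tau and 73.8, 80.9 and 77.8 in KO Tau. The sexes overlapped, through female WT Tau 331 among the Tau mice and male KO PBS 751 beside them. The log2 fold change was 0.59 (SE 0.14, adjusted p 0.0174, edgeR). The call was lost without female WT Tau 341 (0.37, adjusted p 0.0552) and without male WT Tau 773 (0.55).

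Ddit4 encodes REDD1, an inhibitor of mTORC1 that is induced by glucocorticoids, low oxygen and low energy (chromosome 10, 59949669 to 59951834, minus strand). In males it was at 53.6, 54.1 and 61.9 CPM in WT PBS, 73.5, 46.7 and 62.5 in KO PBS, 65.6, 65.8 and 58.9 in WT Tau, and 52.7, 41.7 and 43.2 in KO Tau. In females it was at 70.7 and 92.9 CPM in WT Tau and at 63.5, 80.2 and 90.1 in KO Tau. Female KO Tau 314 lay within the range of the male Tau libraries. The difference was 0.50 on the log2 scale (SE 0.11, adjusted p 0.0129, edgeR), with 0.29 (SE 0.16) in WT and 0.71 (SE 0.15) in KO mice.

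Zbtb16 and Cdkn1a did not pass the adjusted threshold. Zbtb16 encodes PLZF, a zinc finger repressor induced by glucocorticoids in many tissues (chromosome 9, 48654297 to 48836222, minus strand). It was at 49.5, 52.9 and 55.3 CPM in male WT PBS, 56.6, 43.2 and 52.0 in male KO PBS, 55.7, 51.3 and 46.1 in male WT Tau, and 45.1, 38.7 and 54.4 in male KO Tau. Its female values were 56.8 and 63.4 CPM in WT Tau and 66.5, 54.1 and 65.8 in KO Tau. In 4 of the 5 female libraries it was above all 12 males, and the log2 fold change was 0.27 (SE 0.10, unadjusted p 0.0256, adjusted p 0.0812, edgeR).

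Cdkn1a encodes p21, an inhibitor of cyclin-dependent kinases that p53 and glucocorticoids both induce (chromosome 17, 29090976 to 29100727, plus strand, with AC167363.2 on the opposite strand). Male values were 13.5, 17.4 and 12.8 CPM in WT PBS, 6.29, 22.1 and 11.4 in KO PBS, 11.2, 10.8 and 14.0 in WT Tau, and 5.05, 15.7 and 15.1 in KO Tau. Female values were 14.4 and 18.3 CPM in WT Tau and 10.0, 12.0 and 17.04 in KO Tau. The females lay wholly within the male range, which spanned 4.37-fold, and the unadjusted p was 0.405 by edgeR. The libraries at the male extremes were KO PBS 752, the library with the striatal markers, and KO Tau 711. They were also the highest and lowest males in summed neocortical markers (825 and 251 CPM). As deviations from group means, Cdkn1a correlated with the neocortical sum at r 0.895 over 17 libraries and 0.986 in the 12 males. With the striatal sum r was 0.696 and 0.718. Adjusted p was 0.208 for both sums over 17 libraries, and 0.0752 and 0.248 in the males (exact permutation test). Without the 2 libraries farthest on the markers r was 0.552 with the neocortical and 0.613 with the striatal sum. The part of these markers was not tested.

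**Figure D2:**
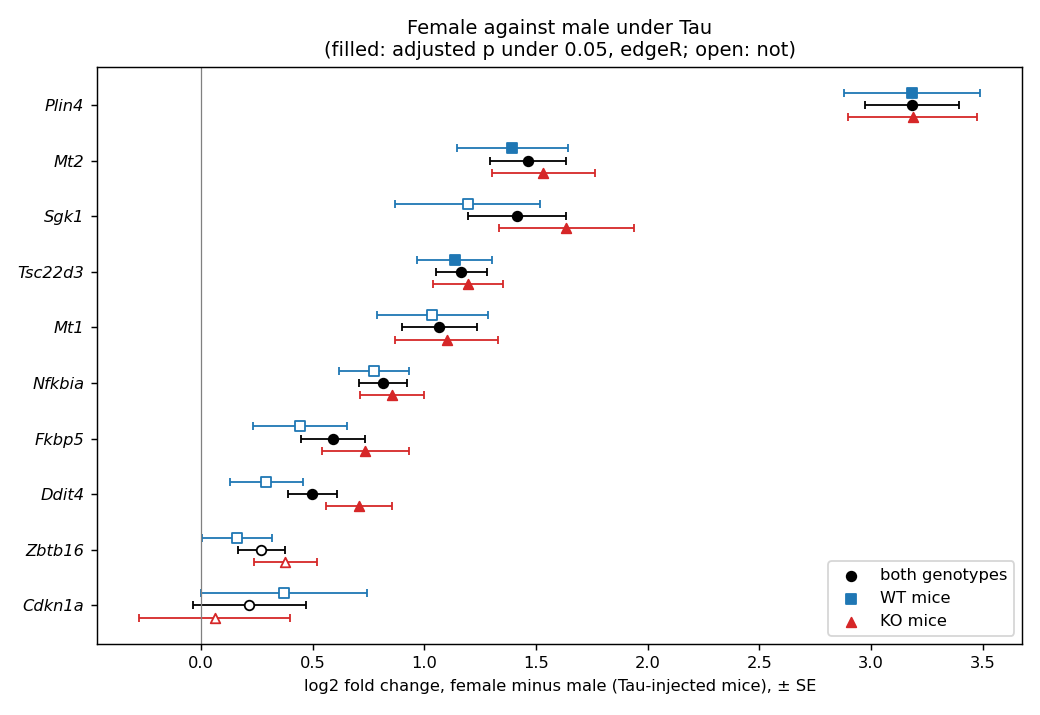
Log2 fold change between female and male Tau mice (positive, higher in females) with its SE for each of the 10 genes, over both genotypes and within WT and KO mice. Filled symbols passed an adjusted p of 0.05 by edgeR: 8 genes over both genotypes, 3 in WT mice and 8 in KO mice.

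Within 1 genotype the comparison had fewer libraries. In WT mice (2 females and 3 males) 3 of the 10 genes were called higher in females, Plin4, Tsc22d3 and Mt2, against 0.37% of all genes called in either direction. In KO mice (3 and 3) 8 were called, against 6.33% of all genes. All 10 log2 fold changes were positive in both genotypes. Whether the sex difference depended on genotype was tested by the interaction, in which edgeR called 0 of the 10 genes and 0% of all genes, with 454 of all genes and 0 of the 10 at the unadjusted threshold of 0.05. The other tools, DESeq2 and voom with quality weights, called 0 of the 10 there. The sign of all 10 differences over both genotypes was the same under every alternative run, scaling included. Leaving out 1 library at a time gave 7 or 8 of the 10 called, while the number of all genes called ran from 628 without female WT Tau 331 to 6290 without male KO Tau 711.

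Other genes around the glucocorticoid receptor were read from a separate list. This list, like the other lists, was chosen with earlier results of these data known, so its counts are not independent support. Markers of astrocytes and endothelium were also higher in females, as given below, and their part in these counts was not tested. Of 30 other genes known to respond to glucocorticoids, 13 were higher and 3 lower in females, against 11.4% and 12.4% of all genes, with a median log2 fold change of 0.47. Hif3a, a subunit of the hypoxia-inducible factors and a steroid target, was at 11.4 to 15.9 CPM in the females and 1.39 to 2.90 CPM in all males (2.67, SE 0.15). Galnt15, a glycosyltransferase, differed by 1.88 (SE 0.22) and Sult1a1, a sulfotransferase, by 1.74 (SE 0.20). Fam107a, an actin-binding protein abundant in astrocytes, was at 822 to 1199 CPM against 296 to 555 in all males (1.37, SE 0.16). The other genes called higher were Angptl4, Mfsd2a, Mertk, Txnip, Arrdc2, Pdk4, Glul, Klf15 and Arrdc3, from 1.15 for Angptl4 down to 0.50 for Arrdc3. Those called lower were Cdkn1c (-1.32, SE 0.31), Nfil3 (-0.50, SE 0.14) and Usp2 (-0.36, SE 0.09). Members of the same list that did not pass included Klf9 (0.04, SE 0.09), Per1 (-0.43, SE 0.15), Rasd1 (-0.10, SE 0.34) and Dusp1 (-0.81, SE 0.31). Without male KO Tau 711 the list had 17 higher and 5 lower, against 21.2% and 19.5% of all genes.

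Genes of the receptor complex and of the hormone system were read from a second list. Of its 17 tested genes, 0 were called higher and 4 lower in females, against 11.4% and 12.4% of all genes, with a median of -0.32. Nr3c1, the glucocorticoid receptor, was lower by 0.27 on the log2 scale (log2 fold change -0.27, SE 0.08, adjusted p 0.0335, edgeR), at 113 to 131 CPM against 131 to 151 in male Tau libraries. In 4 of the 5 females it was below all male Tau libraries, and the range of all 12 males, 111 to 170.4 CPM, held every female. Nr3c2, the mineralocorticoid receptor, did not pass (-0.32, SE 0.31). Crhbp, which binds corticotropin-releasing hormone, was lower (-0.79, SE 0.16), as were the chaperones Hsp90ab1 (-0.43, SE 0.11) and Hspa8 (-0.40, SE 0.12). Hsd11b1, which regenerates active hormone inside cells, was at -0.08 (SE 0.20). Without library 711 there were 1 higher and 9 lower.

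**Figure D3:**
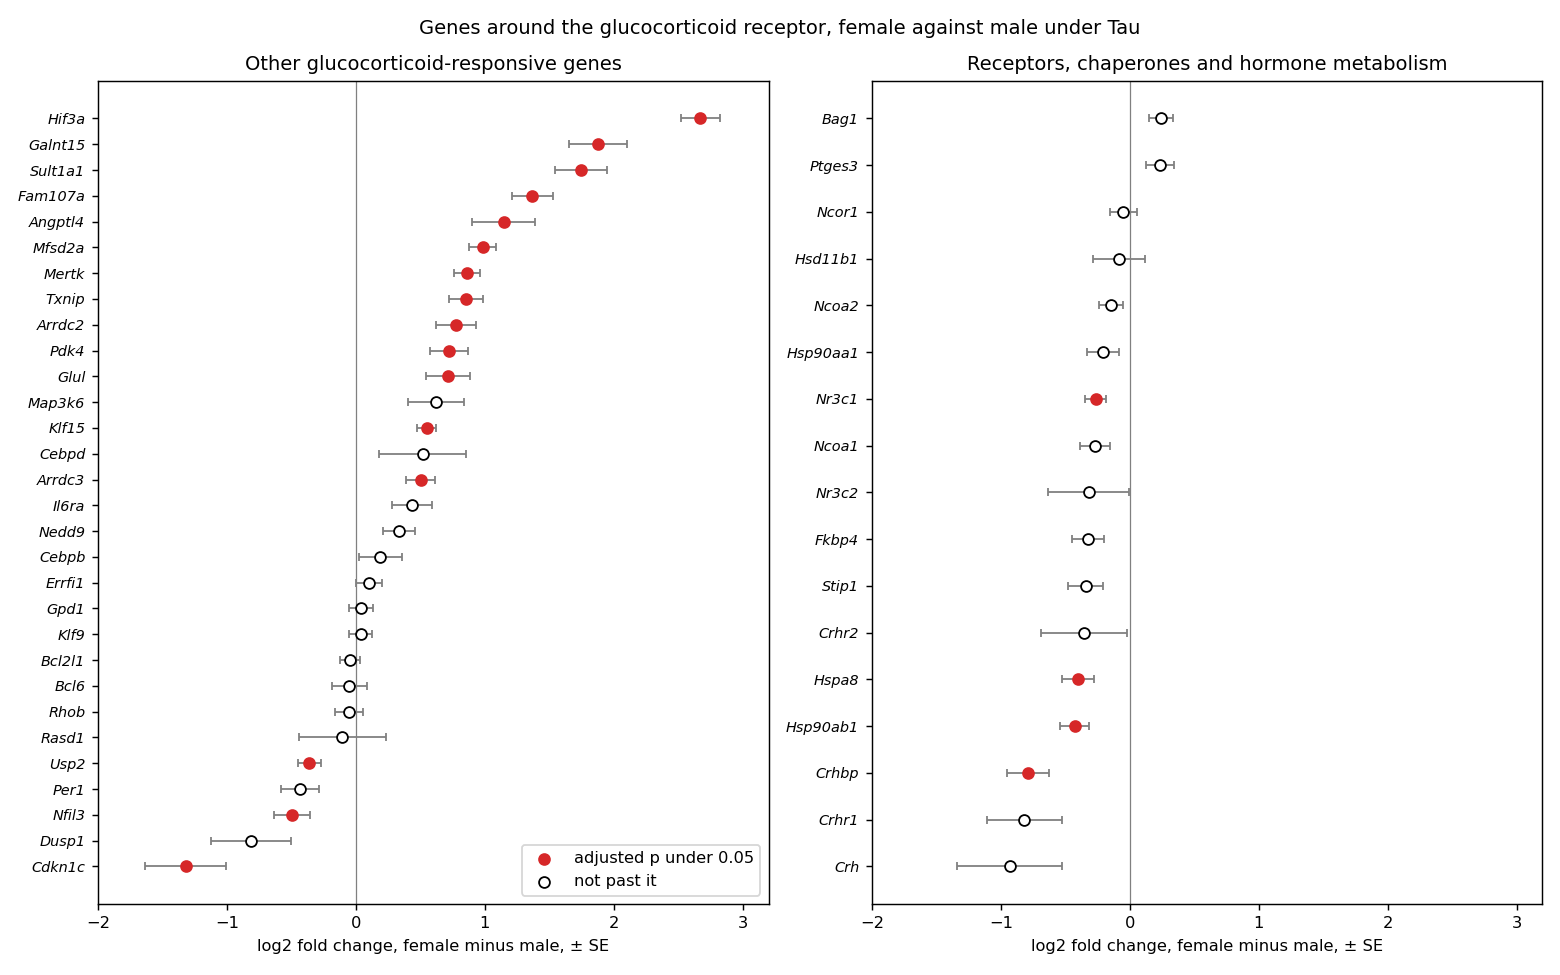
Log2 fold change between female and male Tau mice with its SE, for 30 other glucocorticoid-responsive genes (left) and 17 genes of the receptor complex and hormone system (right). Filled points passed an adjusted p of 0.05 by edgeR, with 13 higher and 3 lower on the left and 4 lower on the right.

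Other stress pathways that reach these genes had members called in both directions, and their counts stand beside the 11.4% of all genes called higher and the 12.4% called lower. Of 15 metal-handling genes other than Mt1 and Mt2, 3 were higher in females and 1 lower. The higher ones were Mt3, a brain metallothionein (0.55, SE 0.16), the zinc exporter gene Slc30a1, a target of the metal sensor MTF1 (0.23, SE 0.07), and the copper pump gene Atp7a (0.48, SE 0.14). Slc30a3, the transporter of synaptic vesicle zinc in neurons, was lower (-0.66, SE 0.13). Of 19 NF-κB pathway genes 5 were higher and 2 lower. Icam1 (1.23, SE 0.16), Cxcl10 (2.07, SE 0.45), Bcl3 (1.11, SE 0.31), Tnfrsf1a (0.56, SE 0.09) and Chuk (0.47, SE 0.15) were higher, while Tnip1 (-0.53, SE 0.11) and Nfkbib (-0.65, SE 0.15) were lower. Of 17 p53 pathway genes 3 were higher (Pmaip1 at 0.93, Trp53inp1 at 0.80 and Mdm2 at 0.26) and 4 lower (Bbc3 at -0.65, Psrc1 at -0.47, Trp53 at -0.40 and Sesn2 at -0.33).

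Cell-type markers differed between the sexes as well. Beside the same background, of 11 astrocyte markers 7 were called higher in females, and their summed level was 8951 to 10070.1 CPM in females and 4574 to 8434 CPM in male Tau libraries. Of 10 endothelial markers 8 were higher (327 to 435 CPM against 217 to 319.6), of 8 pericyte and vessel wall markers 5 (219 to 345 against 165 to 239) and of 11 microglial markers 5 (651 to 806 against 505 to 684). Of 12 oligodendrocyte markers 2 were higher, with overlapping sums (5180.3 to 12697 against 3865 to 8094 CPM). Thalamic markers were higher for 3 of 8 (160.2 to 572 CPM against 164 to 268). The overlap came from female KO Tau 314 at 160.2 CPM, and every other female was at 322 CPM or more. Of 8 general neuronal markers 4 were lower (8544 to 14392 CPM against 10736 to 12670.5), as were 3 of 8 neocortical and 2 of 8 CA1 markers and 5 of 11 immediate early genes. Of the dentate granule, CA3, striatal and choroid plexus markers edgeR called 0, with 0, 0, 2 and 5 at an unadjusted p under 0.05. Without library 711, 11 astrocyte, 8 endothelial, 5 pericyte and vessel wall, 7 microglial, 4 oligodendrocyte and 6 thalamic markers were called higher. So were 3 dentate granule, 1 CA3 and 1 striatal marker. Called lower were 6 general neuronal (1 was higher), 5 neocortical, 2 CA1 and 4 choroid plexus markers. Of all genes 21.2% were then called higher and 19.5% lower. No marker of these lists was at 0 in every female or in every male Tau library, and 1, the choroid plexus marker Tmem72, was at 0 in a female library (0 to 1.27 CPM over the females). Their part in the differences of the 10 genes was not tested. In tissue of mixed cells, fewer cells of a type and less RNA per cell cannot be told apart. Male KO Tau 711, whose astrocyte sum came nearest to that of the females, was at 1.83 CPM of Plin4, 49.9 of Tsc22d3, 49.3 of Sgk1 and 17.7 of Nfkbia, each within the range of the other males. Its Mt1 (224 CPM) and Mt2 (107 CPM) lay above every other male, which reached 187 and 84.0 CPM. Female KO Tau 314, with the lowest thalamic sum, was the lowest female in Tsc22d3, Ddit4, Nfkbia, Cdkn1a, Mt1 and Mt2. It was the highest female in Zbtb16, and another female was lowest in Fkbp5, Sgk1 and Plin4. Neither library decides the part of these markers, which was not tested. As deviations from group means, the astrocyte sum correlated with Mt1 at r 0.774 and with Mt2 at r 0.763 over 17 libraries (adjusted p 0.208 for each, exact permutation test). Without the 2 libraries farthest on the astrocyte sum r was 0.533 and 0.454. Other sums were as close over 17 libraries. Mt1 was at r 0.873 with the microglial, 0.795 with the oligodendrocyte and 0.786 with the endothelial sum. Mt2 was at 0.707, 0.684 and 0.793 with the same sums, and none of these passed after adjustment.

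Tau and genotype were compared within males, and genotype within females. None of the 10 genes passed the adjusted threshold in any of these comparisons by edgeR on all libraries. In male WT mice, Tau against PBS gave 0 of the 10 genes called by edgeR, against 0% of 15098 genes, and 0 of the 10 had an unadjusted p under 0.05. Log2 fold changes ran from -0.30 (Cdkn1a) to 0.36 (Plin4), with SEs from 0.13 to 0.50. KO against WT after PBS gave 0 of the 10 called, against 0.00662% of all genes (1 gene, Acss2 itself), and 0 at the unadjusted threshold. The range was -0.10 (Cdkn1a) to 0.19 (Nfkbia). Among the male groups KO PBS had the widest spread of Fkbp5, from 35.9 to 80.4 CPM, and of Cdkn1a, from 6.29 to 22.1 CPM.

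After Tau, KO against WT males gave 0 of the 10 called, against 0.00662% of all genes, and 1 at the unadjusted threshold, Ddit4. Its 3 KO Tau libraries, at 41.7 to 52.7 CPM, lay below the 3 WT Tau libraries, at 58.9 to 65.8 CPM. It was the only one of the 10 in which they did, against 8.76% of all genes. CA3 marker sums separated the same groups in the same direction, at 323 to 458 CPM in KO Tau and 498 to 560.2 CPM in WT Tau. Over the 12 males, deviations of Ddit4 correlated with those of the CA3 sum at r 0.941 (adjusted p 0.0752, exact permutation test) and with those of the neocortical sum at r -0.909 (adjusted p 0.100). Over all 17 libraries r was 0.705 and -0.697 (adjusted p 0.354 and 0.228, same test). Without the 2 libraries farthest on the markers it was 0.534 and -0.359. The part of these markers in the Ddit4 difference was not tested. The log2 fold change was -0.44 (SE 0.15, unadjusted p 0.0150, adjusted p 0.927, edgeR). Tau against PBS in KO males gave 0 called, against 0% of all genes. Ddit4 (-0.46, SE 0.15, unadjusted p 0.0130) and Sgk1 (-0.44, SE 0.14, unadjusted p 0.00850) were at the unadjusted threshold with adjusted p 0.550 each, where 7.95% of all genes were. Sgk1 was at 47.2 to 64.3 CPM in KO Tau and 61.7 to 76.4 CPM in KO PBS, with overlap. These comparisons share the male KO Tau libraries, so their values are not independent.

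The interaction of genotype and Tau in males gave 0 called, against 0% of all genes, with Ddit4 (-0.61, SE 0.22, unadjusted p 0.0177) and Sgk1 (-0.46, SE 0.20, unadjusted p 0.0396) at adjusted p 0.996 by edgeR. Male KO Tau against male WT PBS gave 0 called, against 0.00662% of all genes, and 0 at the unadjusted threshold, with a range from -0.29 to 0.36. In Ddit4 and Nfkbia the KO Tau libraries lay below those of WT PBS, as in 8.11% of all genes. Averaged over genotypes, Tau gave 0 called, against 0% of all genes, and 0 at the unadjusted threshold. In females KO against WT gave 0 of the 10 called, against 0.00649% of all genes, and 0 at the unadjusted threshold, from -0.29 (Cdkn1a) to 0.24 (Mt1). The KO difference averaged over the 3 strata (male PBS, male Tau, female Tau) gave 0 called, against 0.00641% of all genes, and 0 at the unadjusted threshold, with values from -0.12 to 0.13 and SEs from 0.08 to 0.25. In each of these comparisons DESeq2 and voom with quality weights called 0 of the 10 as well.

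Library 711 bears on these counts. In a fit of only the groups compared and without it, KO against WT after Tau gave 733 genes and 2 of the 10, Ddit4 (-0.56, adjusted p 0.0187) and Fkbp5 (-0.53, adjusted p 0.0465). Male KO Tau against WT PBS gave 620 genes and 1 of the 10, Ddit4 (-0.41, adjusted p 0.0429), and Tau against PBS in KO males gave 0. The fit has 2 KO Tau libraries, at 41.7 and 43.2 CPM of Ddit4. These 2, male KO Tau 712 and 713, also stood apart in their markers. Neocortical markers summed to 753 and 680 CPM in them, against 367 to 464 CPM in male WT Tau. CA3 markers summed to 323 and 351 CPM, against 498 to 560 CPM, and 713 held the high choroid plexus sum. The part of these markers in the calls was not tested.

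**Figure D4:**
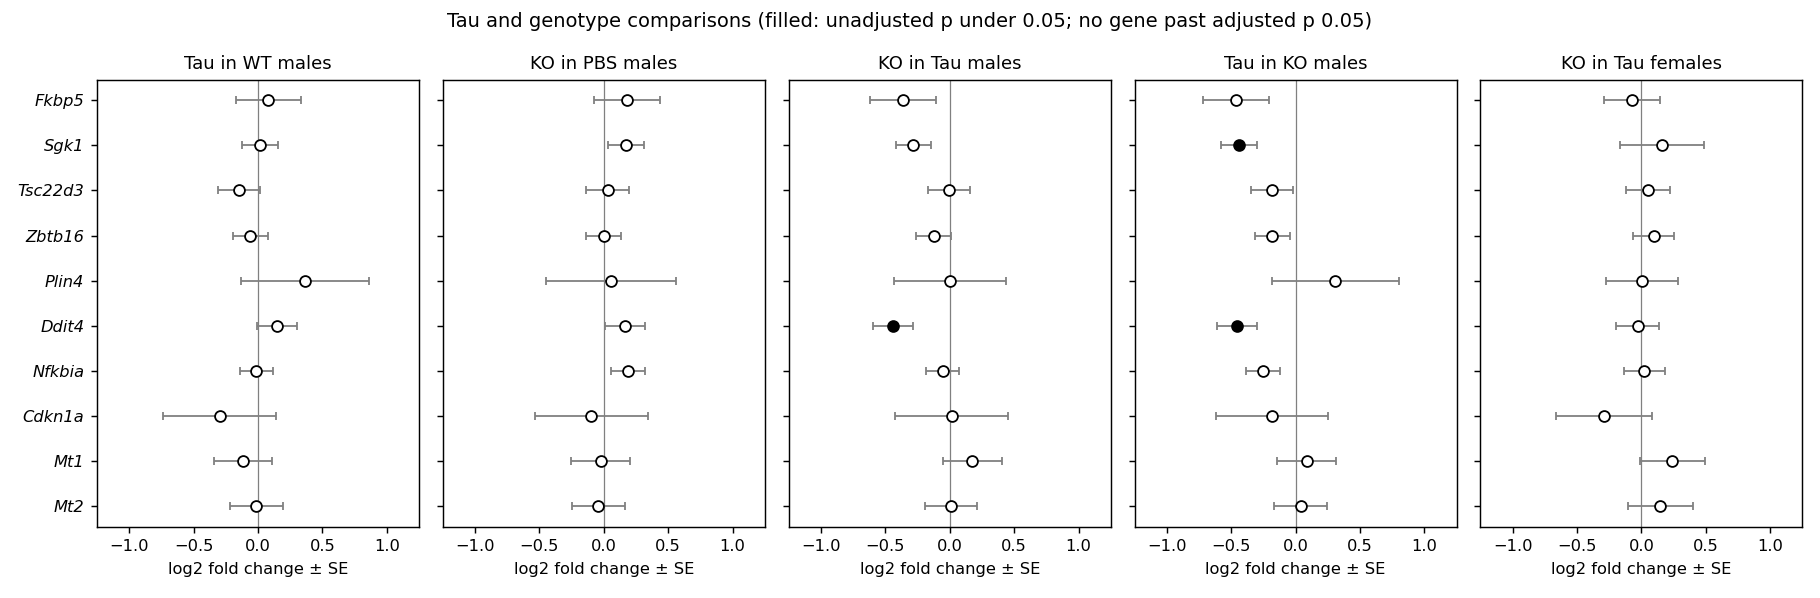
Log2 fold changes with SE of the 10 genes in the Tau and genotype comparisons, over libraries of 2 or 3 mice per group. Filled points had an unadjusted p under 0.05 by edgeR, Ddit4 for KO in Tau males and Ddit4 and Sgk1 for Tau in KO males, and no gene passed an adjusted p of 0.05.

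The pathway lists in these comparisons also had 0 genes called by edgeR. Among the glucocorticoid-responsive genes the smallest p was that of Per1, a clock gene with a glucocorticoid response element, in male KO Tau against WT PBS (-0.88, SE 0.14, adjusted p 0.162). Per1 was also at -0.55 (SE 0.14) for KO after PBS and -0.38 for Tau in WT males (unadjusted p 0.0207). Nedd9, a scaffold protein of cell adhesion, was at -0.71 (SE 0.15) for KO in Tau males and -0.48 (SE 0.15) for Tau in KO males. Sesn2, a p53 target that like Ddit4 restrains mTORC1, was at -0.47 (SE 0.10, adjusted p 0.550) for Tau in KO males. In the receptor list the 2 smallest p for Tau in KO males were those of the coactivators Ncoa2 (-0.23, unadjusted p 0.0340) and Ncoa1 (-0.24). In the metal list Slc30a1 had the smallest p for KO in Tau females (0.40, SE 0.11).

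Libraries of the same group also differed among themselves, and the genes were compared for whether they deviated together. Deviations from the group mean of log2 CPM were correlated over the 17 libraries for the 45 pairs, with an exact two-sided permutation test within groups (15552 arrangements). After adjustment 2 pairs passed. Mt1 and Mt2 had Pearson's r 0.949 (permutation p 0.000193, adjusted p 0.00868) and Spearman's rho 0.895 (adjusted p 0.00868). Fkbp5 and Ddit4 had r 0.854 (permutation p 0.000450, adjusted p 0.0101) and rho 0.843 (adjusted p 0.00868). Without the 2 libraries farthest from the median of the first gene, and without any library then left alone in its group, r was 0.932 for Mt1 and Mt2 and 0.739 for Fkbp5 and Ddit4, with adjusted p 0.0781 and 0.165. Within the 12 males r was 0.950 (adjusted p 0.0521) and 0.942 (adjusted p 0.0347). With TMM factors over the 17 libraries r was 0.944 (adjusted p 0.0145) and 0.881 (adjusted p 0.0637) by the same test.

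The remaining pairs did not pass. Of the 45, 32 were positive and the median r was 0.24. Fkbp5 and Tsc22d3, both classical receptor targets, had r -0.67 (permutation p 0.0309, adjusted p 0.231). Sgk1 and Nfkbia were at 0.48 and Tsc22d3 and Cdkn1a at 0.71 (adjusted p 0.231). The genes with the most similar deviations over the 17 libraries among 15593 others were, as a description, Arhgef6 for Fkbp5 (r 0.969), Slfn9 for Sgk1 (0.896), Vamp1 for Tsc22d3 (0.965), Prlr for Zbtb16 (0.889) and Adamtsl1 for Plin4 (0.949). They were Rerg for Ddit4 (0.956), Slc25a39 for Nfkbia (0.909), Cars for Cdkn1a (0.977), Tsc22d4 for Mt1 (0.969) and Mt1 for Mt2 (0.949).

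**Figure D5:**
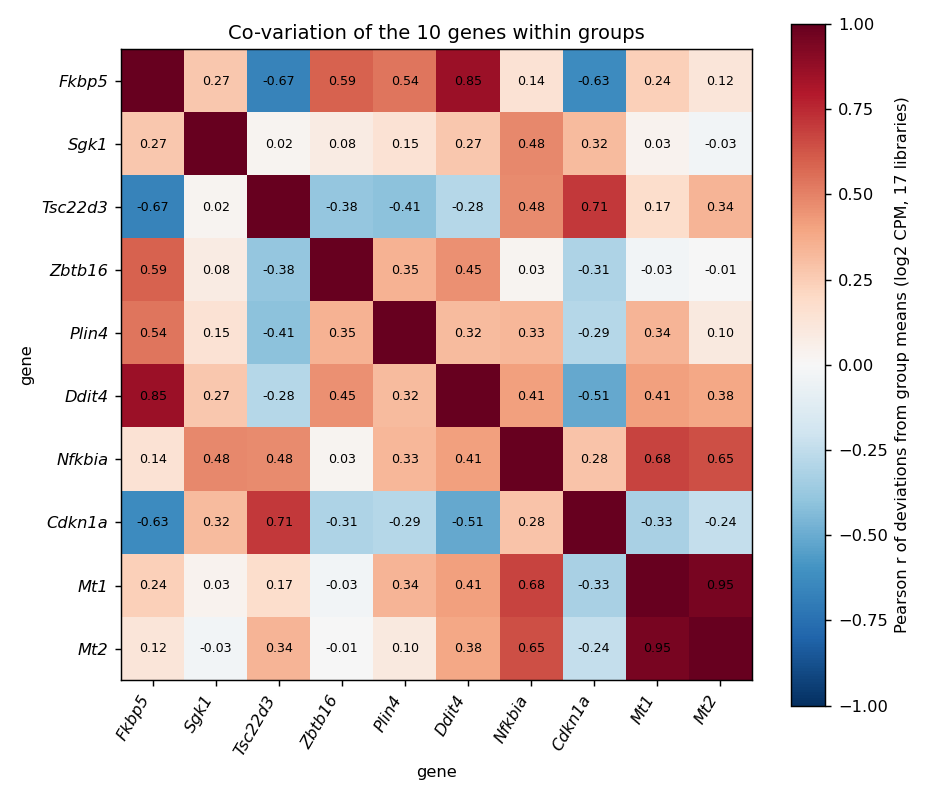
Pearson's r between the deviations from group means (log2 CPM) for each pair of the 10 genes over 17 libraries. The darkest red cells off the diagonal are Mt1 with Mt2 (0.95) and Fkbp5 with Ddit4 (0.85), the 2 pairs that passed the adjusted threshold.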

How the data were processed

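RNA was extracted from slices of dorsal hippocampus of mice perfused with PBS and paraformaldehyde, per the labels, and libraries were made with poly(A) selection and a kit that as sold does not mark strand. The authors aligned reads with STAR 2.5.2 to mouse build GRCm38 and counted them over exons with HTSeq 0.9.1 in reverse-stranded mode, per the submitters' processing notes and the study's methods. The annotation release is not given in the sources used here. Raw counts of reads were deposited for each gene symbol, with totals from 14183131 to 22463635 per library, which set the counting precision given with each level. No column was left unmapped.

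Counts were tested with edgeR 4.0.16 in R 4.3.3 (quasi-likelihood F-test, TMM factors, filterByExpr with minimum count 10 and minimum total count 15, Benjamini-Hochberg adjustment at 0.05). Male contrasts came from 1 fit of 12 libraries (15098 genes), contrasts with females from 1 fit of 11 Tau libraries (15419 genes), and the KO average over strata from all 17 (15594 genes). CPM and RPKM are scaled to library totals. Log2 CPM for correlations used a prior count of 2, and all within-group arrangements were enumerated in place of resampling. Alternatives were DESeq2 1.42.0, voom with quality weights in limma 3.58.1, RLE factors, library totals alone, every gene with a count, other sets of libraries and each library left out in turn. The comparison of the sexes within 1 genotype, its interaction with genotype, the correlations with marker sums and the gene lists without library 711 were added after seeing the data. The scripts were tested on simulated data.

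All 10 genes were reported in every library. Fold changes were printed with their tests where the unadjusted p was under 0.05, the ends of each range were named beside the counts, and list genes where called or among the 2 smallest p of a list. Klf9, Per1, Rasd1, Dusp1, Nr3c2 and Hsd11b1 in the comparison of the sexes, Hdgfrp2, and Ddit4 in WT mice, were named outside this rule after their values were seen. The study gave its test on male libraries. The 10 genes and all lists were chosen with earlier results of these data known. Mouse numbers name separate animals, one library each. Positions came from the GENCODE annotation of GRCm38.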

Additional observations from a re-analysis of the deposited data

How the results depend on the processing

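Under all alternatives the 10 sex differences kept their sign. The number of all genes called for the sexes under Tau (3674) was 6189 with voom quality weights, 57 in WT mice alone and 976 in KO mice alone. With 1 library left out it ran from 628 to 6290. It was 628 without female WT Tau 331, 1585 without male WT Tau 773, 1770 without male KO Tau 713, 2276 without male KO Tau 712, 2353 without male WT Tau 771, 2385 without female KO Tau 325, 2433 without male WT Tau 772 and 6290 without male KO Tau 711. Of the 10 genes 7 or 8 were called with 1 library left out, and 3 in WT mice alone. With library totals alone Zbtb16 was called as well (adjusted p 0.0417, edgeR). DESeq2 called 2 genes for KO in PBS males, 15 for male KO Tau against WT PBS, 4 for KO in Tau males, 37 for Tau in KO males, 1 for Tau averaged over genotypes, 3 for the KO average over strata and 1 for the sex by genotype interaction. Voom called 11 for male KO Tau against WT PBS and 2 for KO in Tau males, and the fit of all 17 libraries called 3 for the former. The KO average called 1 or 2 genes with 1 library left out, 2 without male KO Tau 711. KO in Tau females called 0 in a fit of only those groups and 0 or 1 with 1 library left out, 0 without female KO Tau 324 and 0 without female WT Tau 331. Only the groups compared and without male KO Tau 711, male KO Tau against WT PBS gave 620 genes and 1 of the 10, and KO in Tau males 733 genes and 2 of the 10. Of the correlated pairs (2), 1 passed in the 12 males (Fkbp5 and Ddit4) and 1 with TMM factors (Mt1 and Mt2). Without the 2 farthest libraries 0 passed. The cause of these shifts was not tested. No paired analysis was possible because the groups share no replicate number, each number being taken as 1 mouse. Groups of 2 or 3 mice limit the comparisons of Tau and genotype, in which SEs of the 10 genes reached 0.50 on the log2 scale (0.70 for the interaction).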

Other observations

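The deviations of the 10 genes from their group means were also set beside those of the summed markers of 13 cell types and regions, over 17 libraries. Of the 130 correlations 0 passed an adjusted p of 0.05 by the exact permutation test within groups, and 0 passed within the 12 males alone. The smallest p was that of Fkbp5 with CA3 pyramidal markers (Pearson's r 0.857, permutation p 0.000707, adjusted p 0.0919, Spearman's rho 0.846, adjusted p 0.113), with r 0.82 without the 2 libraries farthest on the markers and 0.921 in the males. Fkbp5 was at r -0.786 with neocortical markers (adjusted p 0.0975, permutation), and Mt1 at r 0.795 with oligodendrocyte markers (adjusted p 0.0975, permutation). Without the 2 libraries farthest on the markers these were -0.568 and 0.686.

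Of 11 immediate early genes, which neurons switch on with activity, 5 were called lower and 0 higher in the female Tau libraries by edgeR, against 12.4% and 11.4% of all genes, with a median log2 fold change of -1.15. Without male KO Tau 711 there were 10 called lower, against 19.5% of all genes.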
